A study of Mus musculus with 12 samples.

Results

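The genes described are 10 that move calcium out of the cytosol or are thought to act on its transport: the plasma membrane calcium pumps Atp2b1, Atp2b2, Atp2b3 and Atp2b4, the endoplasmic reticulum pump Atp2a2, the sodium/calcium exchangers Slc8a1, Slc8a2 and Slc8a3, and the stanniocalcins Stc1 and Stc2. They were taken by gene name from an exon array and were represented by 126 of the 165658 probes and 10 of the 19478 genes analysed. Stc1 was included because of its high apical signal, so its levels are described without a test, whereas the other 9 were compared by test. Cochleae came from male C57BL/6 mice aged 6 weeks, with no treatment or transgene named, and each was cut into an apical, a middle and a basal turn. Besides the organ of Corti, the tissue held spiral ganglion neurons and the lateral wall (spiral ligament, spiral prominence and stria vascularis). The study used 4 mice for the 12 arrays, so the turns share animals, but which arrays came from one mouse is not stated. Each turn was measured on 4 arrays, and every turn lay on a slide of its own, so turn and slide cannot be told apart. The 75th percentile of the arrays ran from 534 to 721.6 before scaling, between 77.4% and 81.4% of the spots were well above background, and 0 probe spots were saturated. Fluorescence depends on the probe as well as on the transcript, so levels were compared between turns for one probe or gene and never between genes. In such bulk tissue, fewer cells of a type and less RNA per cell cannot be told apart.

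Calcium that enters a cell through channels is removed by ATP-driven pumps of high affinity and by exchangers that use the sodium gradient. In the cochlea, the pump PMCA2 encoded by Atp2b2 sits in the stereocilia of hair cells and extrudes the calcium that enters through the mechanotransduction channels, and its loss causes deafness in mice. Stanniocalcins are secreted glycoproteins, first known as calcium-regulating hormones of fish, and in mammals they bind and inhibit pappalysin proteases.

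The probes that carry the main observations are shown first. Stc1 had 4 probes of 60 bases on the plus strand of chromosome 14 (mm9), at chr14:69647505-69647564, chr14:69649643-69649702, chr14:69650299-69650358 and chr14:69656294-69656353. They are given because every signal of Stc1 below rests on these 4 stretches. All 4 shared a reading frame free of stop codons.

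Stc1 probe 1: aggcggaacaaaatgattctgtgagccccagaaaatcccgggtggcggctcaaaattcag
Stc1 probe 2: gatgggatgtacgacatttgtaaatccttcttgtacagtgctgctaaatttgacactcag
Stc1 probe 3: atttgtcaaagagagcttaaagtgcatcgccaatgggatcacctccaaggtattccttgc
Stc1 probe 4: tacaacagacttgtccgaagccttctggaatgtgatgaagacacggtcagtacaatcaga

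Each of the 4 plasma membrane pumps had 19 probes, and probe 12, numbered from the 5′ end, lay on the same aligned stretch in all 4 genes. These probes are given because probe 12 of Atp2b2 and of Atp2b3 behaved unlike the other probes of its gene. They lie at chr10:98472863-98472922 (plus strand) for Atp2b1, chr6:113715729-113715788 (minus strand) for Atp2b2, chrX:70790732-70790791 (plus strand) for Atp2b3 and chr1:135624300-135624359 (minus strand) for Atp2b4. Capitals mark the bases that were the same in all 4 probes, 32 of the 46 aligned positions that all 4 covered.

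Atp2b1 probe 12: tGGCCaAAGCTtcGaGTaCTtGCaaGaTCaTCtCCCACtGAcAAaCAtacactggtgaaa
Atp2b2 probe 12: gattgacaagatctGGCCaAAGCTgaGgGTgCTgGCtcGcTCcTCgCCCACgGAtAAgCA
Atp2b3 probe 12: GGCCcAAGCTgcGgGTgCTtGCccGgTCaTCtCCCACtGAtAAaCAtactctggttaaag
Atp2b4 probe 12: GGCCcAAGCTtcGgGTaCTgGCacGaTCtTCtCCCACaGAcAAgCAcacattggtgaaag

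Of the 9 genes tested, 6 had more signal in the apex than in the base and 1, Stc2, had more in the base. The Stc2 call rests on signals near background, with no probe well above it on all 4 arrays of any turn, and was lost with normexp. The call of Slc8a1, also dim, was lost with normexp too (limma adjusted p = 0.052). Those of Atp2b1 and Atp2b4 were lost with spike-in scaling (limma adjusted p = 0.55 and 0.13). Of all 19478 genes, 39.2% passed this comparison, 17.6% with more signal in the apex and 21.6% with more in the base. Between apex and middle, 3 of the 9 were called towards the apex and 1 towards the middle, where 12% of all genes passed (4.43% towards the apex and 7.58% towards the middle). Between middle and base, 4 were higher in the middle and 0 in the base (0 also at an unadjusted p under 0.05 and in an unmoderated one-way test), where 20.8% of all genes passed (11.6% higher in the middle and 9.18% higher in the base). The median log2 difference of the 9 genes was 0.63 for apex minus base, 0.19 for apex minus middle and 0.23 for middle minus base, beside medians over all genes of -0.0363, -0.0671 and 0.0377. The 4 apical arrays did not overlap with the 4 basal arrays in 8 of the 9 genes, as in 38.3% of all genes. Apical and middle arrays were apart in 4 of the 9 (20.8% of all genes), and middle and basal arrays in 4 (24.0% of all genes). The F test over the turns with at least a 2-fold difference was passed by 3 of the 9, Atp2b2, Atp2b3 and Slc8a2, and by 4.69% of all genes.

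**Figure D1:**
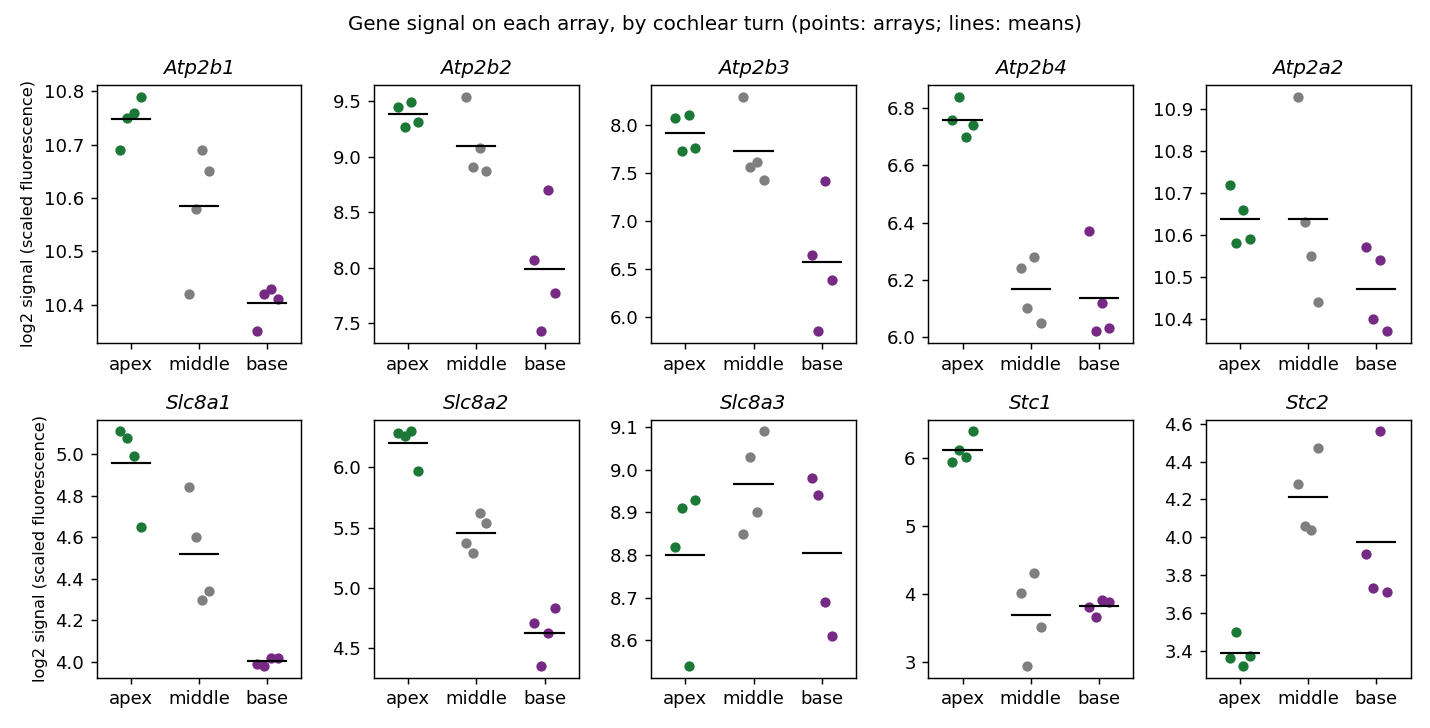
Log2 signal of each of the 10 genes (vertical axis, its range set for each gene) on the 4 arrays of the apex, middle and base (points), with the mean of each turn (lines). The basal arrays of Atp2b2 and Atp2b3 are spread over more than 1 log2 unit, whereas the 4 apical arrays of Stc1 sit between 5.94 and 6.39, above all others.

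**Figure D2:**
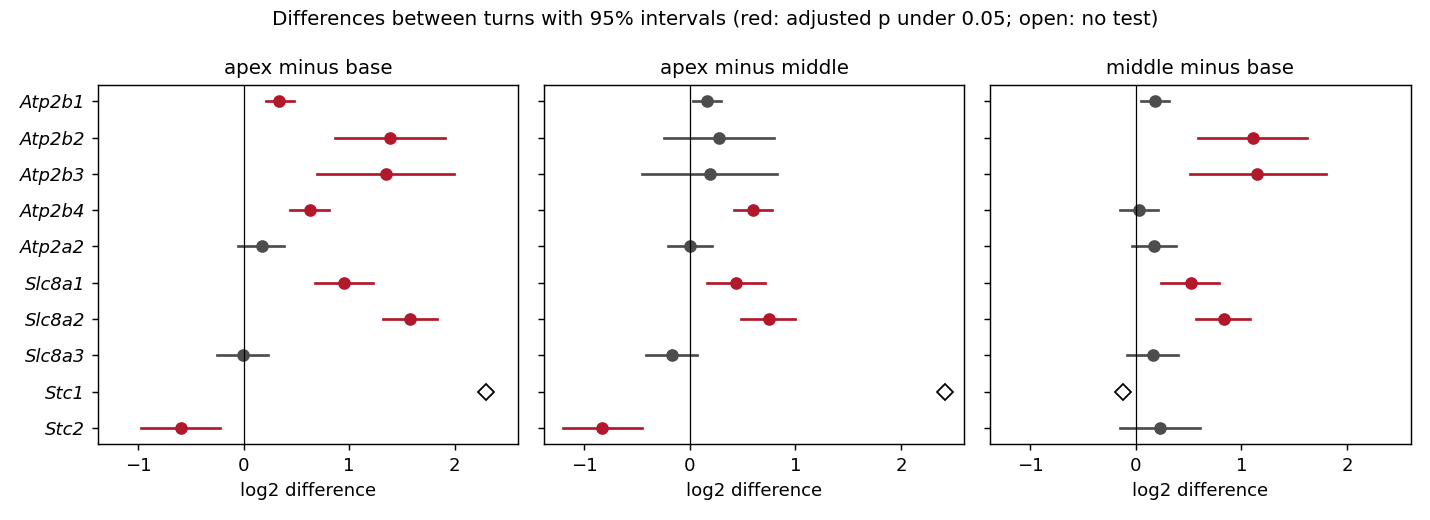
Log2 difference between turns (horizontal axis) for each gene, with its 95% interval from limma; red marks an adjusted p under 0.05 over all genes, and the open diamonds show Stc1, which was not tested. Slc8a1 and Slc8a2 are red in all 3 comparisons, each with more signal towards the apex, and the apex minus middle call of Slc8a1 was lost under 21 of 28 alternatives.

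Atp2b1, which encodes the widely expressed pump PMCA1, was slightly higher in the apex than at the basal end, with neither step through the middle turn past the test. Its 19 probes lie on the plus strand within chr10:98431670-98485834 and all were well above background on all 12 arrays. The gene signal was 1650, 1720, 1730 and 1770 on the apical arrays, 1370, 1530, 1650 and 1610 on the middle arrays, and 1300, 1370, 1380 and 1360 on the basal arrays. All apical arrays were above all basal arrays, and the middle arrays reached from the level of the basal to that of the apical ones. The apex was 1.27-fold above the base (log2 difference 0.34, SE 0.06, limma adjusted p = 0.001). The apex minus middle difference was 0.16 (95% interval 0.03 to 0.30, adjusted p = 0.097) and the middle minus base difference 0.18 (0.05 to 0.31, adjusted p = 0.054). With the array number of the labels fitted as a block, both steps passed (limma adjusted p = 0.046 and 0.022). All 19 probes, taken one by one, passed with more apical than basal signal, by 0.17 to 0.52. The apex minus base difference turned to -0.07 (adjusted p = 0.55) when arrays were scaled to the spike-in probes, a scaling that moved the median of all genes to -0.454.

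Atp2b2, the pump of hair cell stereocilia, was lower in the base than in both other turns. Its 19 probes lie on the minus strand within chr6:113695839-113792323 and all were well above background on all arrays. The signal was 700, 619, 721 and 633 in the apex, 746, 481, 540 and 467 on the middle arrays, and 269, 172, 417 and 219 in the base. No basal array reached the lowest apical or middle array, and the basal arrays differed among themselves, with array 3 highest and array 2 lowest. The apex was 2.62-fold above the base (log2 difference 1.39, SE 0.24, adjusted p = 0.00086) and the middle turn 2.15-fold (1.11, SE 0.24, adjusted p = 0.0087). Between apex and middle the difference was 0.28, with an interval from -0.24 to 0.80 (adjusted p = 0.44).

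Atp2b3, a pump found mostly in neurons, followed the same order of arrays. Its 19 probes lie on the plus strand within chrX:70768438-70816306, and 14 of them were well above background on all 12 arrays. The signal was 271, 213, 276 and 217 in the apex, 315, 189, 197 and 173 on the middle arrays, and 100, 57.6, 171 and 83.2 in the base. The lowest middle array, at 173, was just above the highest basal array, at 171. The apex was 2.54-fold above the base (1.35, SE 0.29, adjusted p = 0.0037) and the middle turn 2.23-fold (1.15, SE 0.29, adjusted p = 0.018). The apex minus middle difference was 0.19, with an interval from -0.45 to 0.83 (adjusted p = 0.69). The middle minus base call of Atp2b3 was lost without middle array 1 (0.96, adjusted p = 0.053), without basal array 4 (1.09, adjusted p = 0.05), and with the arrays of these turns alone (1.15, adjusted p = 0.051).

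Markers of neurons and hair cells were, like both pumps, lower in the base than in the apex. All 6 neuronal markers (Nefl, Nefm, Nefh, Tubb3, Snap25 and Syt1) exceeded the base in the apex, and their summed signal was 22900 to 30000 in the apex, 20400 to 36400 on the middle arrays and 4120 to 18700 in the base. Basal array 2 held the lowest sum and basal array 3, at 18700, the highest of the base, and middle array 1 had the highest sum of all arrays, as it had for Atp2b2 and Atp2b3. All 6 hair cell markers (Myo7a, Otof, Slc26a5, Slc17a8, Strc and Lhfpl5) were also higher in the apex, with sums of 2020 to 2390 in the apex, 1630 to 1820 on the middle arrays and 515 to 907 in the base. Within the base, the hair cell sum was lowest on array 2 and highest on array 3, as for both pumps. Outside the base it followed them only in part. Within the middle turn, the hair cell sum was higher on arrays 1 and 3 than on 2 and 4, as were both pumps. It was highest of all on apical array 2, where both pumps were lowest in the apex, and was 1760 on middle array 1, below all apical arrays. Each of these neuronal and hair cell markers was detected above background on all 12 arrays. The 4 Schwann cell markers were apically higher as well, with summed signals of 12200 to 13700 in the apex, 13000 to 15600 on the middle arrays and 6060 to 11700 in the base. Their part in the differences of the pumps was not tested. Without basal arrays 2 and 3, the apex minus base difference was 1.46 for Atp2b2 (adjusted p = 5e-04) and 1.41 for Atp2b3 (adjusted p = 0.0018). The basal arrays kept, 1 and 4, had neuronal sums of 8570 and 6200, below all apical arrays, so this fit cannot tell the part of neurons.

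Atp2b4 differed from its relatives in that the apex alone stood out. Its 19 probes lie on the minus strand within chr1:135603249-135649725, and 11 of them were well above background on all arrays. The log2 signal was 6.76, 6.84, 6.70 and 6.74 in the apex, 6.24, 6.10, 6.28 and 6.05 on the middle arrays, and 6.37, 6.02, 6.12 and 6.03 in the base. The apical arrays lay above all others, whereas the middle and basal arrays overlapped. The apex was 1.54-fold above the base (0.63, SE 0.083, adjusted p = 0.00018) and 1.51-fold above the middle turn (0.60, SE 0.083, adjusted p = 0.0024). The middle minus base difference was 0.03, with an interval from -0.15 to 0.21 (adjusted p = 0.83). With spike-in scaling the apex minus base difference was 0.21 (adjusted p = 0.13).

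Exon probes allowed the pumps to be followed along the gene. Of the 122 probes of the 9 tested genes, 81 passed the test between apex and base, 80 towards the apex and 1 towards the base, where 34.4% of all probes passed (18.0% and 16.4% respectively). These were 19 of 19 probes of Atp2b1, 18 of 19 of Atp2b2, 18 of 19 of Atp2b3 and 11 of 19 of Atp2b4. The single probe of Atp2b2 and of Atp2b3 that did not pass was in both genes probe 12, shown above. In Atp2b2, the signal of probe 12 was 15000, 14500, 15300 and 15200 in the apex, 16900, 14300, 15700 and 17600 on the middle arrays, and 17300, 14900, 15500 and 14900 in the base. The apex minus base difference of this probe was -0.06 (adjusted p = 0.62), and the other 18 probes ran from 1.05 to 1.88.

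In Atp2b3, the signal of probe 12 was 4760, 4460, 4440 and 4510 in the apex, 4710, 4590, 4530 and 4650 on the middle arrays, and 5260, 5230, 4420 and 4500 in the base. Its difference was -0.09 (adjusted p = 0.36), where the other 18 probes ran from 0.56 to 2.13. The turns overlapped on probe 12 in both genes, whereas the gene signals of apex and base did not. Probe 12 of Atp2b1 showed a difference of 0.24 (adjusted p = 0.011) and that of Atp2b4 0.22 (adjusted p = 0.28). Between pairs of these 4 probes, 72.3% to 84.7% of the aligned bases were the same. Such likeness was not limited to probe 12. Of all 76 pump probes, 10 shared at least 50 bases with another pump gene's probe, with apex minus base differences from 0.22 to 1.58. Probe 12 of Atp2b2 and that of Atp2b3 were not among these 10, as they shared at most 37 and 49 bases. Probe 9 of Atp2b2, 86.7% the same as a probe of Atp2b4, differed by 1.35. Probe 13 of Atp2b2, 85% the same as one of Atp2b3, differed by 1.58. In Atp2b3, probe 7, 85% the same as a probe of Atp2b4, differed by 0.56, the lowest of the other 18 probes. Probe 13 of Atp2b3, 85% the same as that of Atp2b2, differed by 0.98. The part of shared bases was not tested. Without probe 12 the apex minus base difference was 1.47 for Atp2b2 (adjusted p = 0.00082) and 1.43 for Atp2b3 (adjusted p = 0.0037). A gene summary by the mean of the linear signals, in which probes of high signal weigh more, gave 0.47 for Atp2b2 (adjusted p = 0.0039) and 0.44 for Atp2b3 (adjusted p = 0.011).

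**Figure D3:**
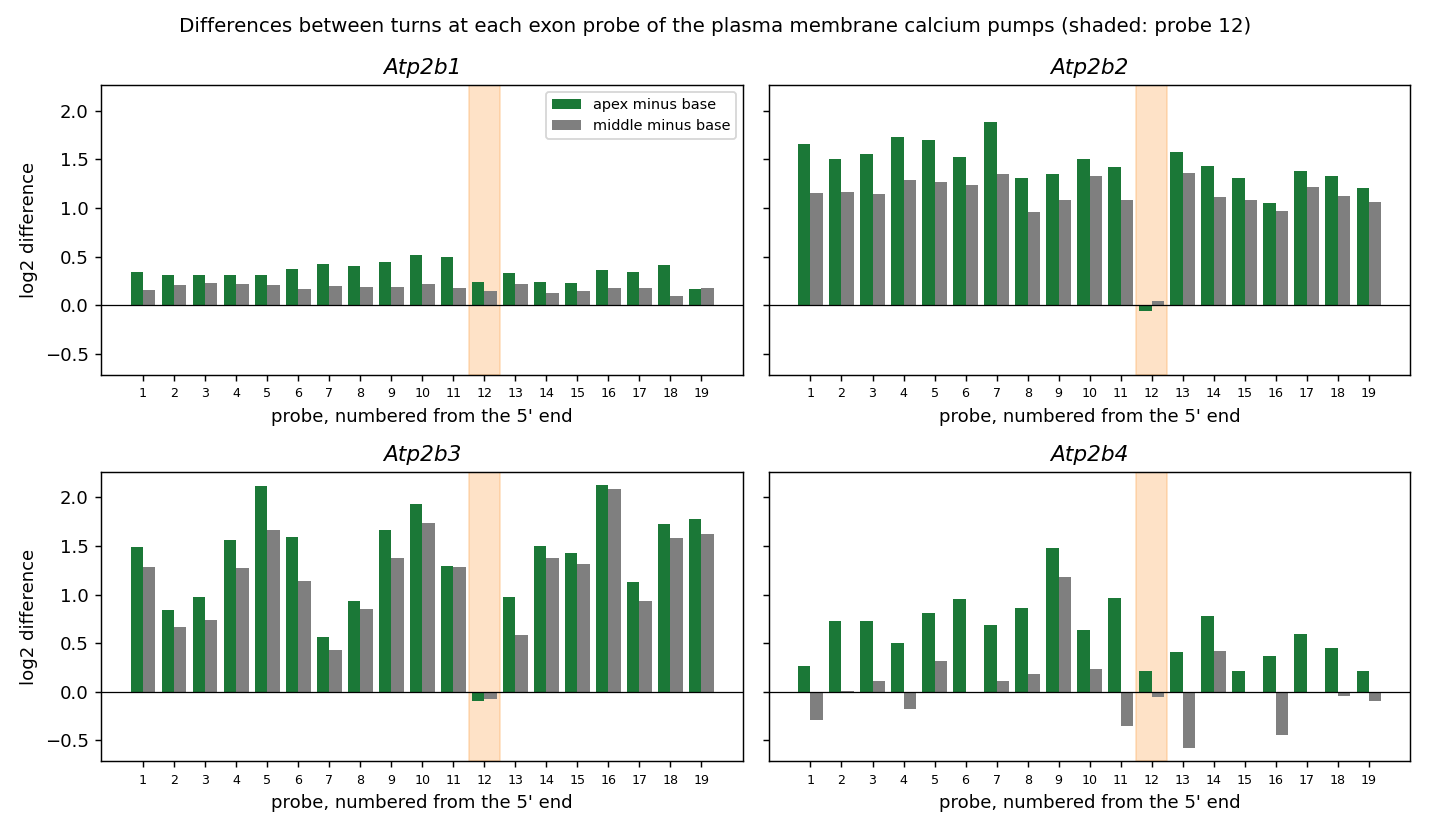
Log2 difference of apex minus base (green) and middle minus base (grey) at each of the 19 probes of Atp2b1, Atp2b2, Atp2b3 and Atp2b4, numbered from the 5′ end, with probe 12 shaded. The shaded bars of Atp2b2 and Atp2b3 lie near 0, at -0.06 and -0.09 for apex minus base, between neighbours near or above 1.

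Each probe was also set against the mean of the other probes of its gene, and 20 of the 126 probes departed from their gene over the 3 turns, beside 6.28% of the 159697 probes tested. They were 3 probes of Atp2b2, 3 of Atp2b3, 2 of Atp2b4, 4 of Slc8a2 and 8 of Atp2a2. Atp2b1, Slc8a1, Slc8a3, Stc1 and Stc2 had 0 in limma after adjustment, 8 of their 40 probes at an unadjusted p under 0.05, and 0 in an unmoderated one-way test. The count of 20 depended on the settings: it was 34 with normexp, 22 without basal array 3, 14 without middle array 3, and 7 to 13 without any one of the other 10 arrays, lowest without basal array 2. In each of the 12 fits with 1 array left out, probe 12 of Atp2b2, probe 13 of Atp2b3, probe 15 of Atp2b4 and the 4 probes of Slc8a2 still departed. Probe 12 of Atp2b3 passed in 1 of these 12 fits.

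The other departing pump probes were moderate. Probes 4 and 16 of Atp2b2 had apex minus base differences of 1.73 and 1.05, probes 5 and 13 of Atp2b3 had 2.12 and 0.98, and probes 9 and 15 of Atp2b4 had 1.48 and 0.21. Probe 9 of Atp2b4 also had a middle minus base difference of 1.18, the highest of that gene's probes. It shared 52 of 60 bases with probe 9 of Atp2b2, which had 1.35 for apex minus base and 1.08 for middle minus base. Whether probe 9 of Atp2b4 took up signal of Atp2b2 was not tested.

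Atp2a2 encodes SERCA2, which returns calcium to the endoplasmic reticulum. Its 21 probes lie on the minus strand within chr5:122903704-122951636 and all were well above background on all arrays. The gene signal was 1680, 1530, 1620 and 1540 in the apex, 1960, 1580, 1500 and 1390 on the middle arrays, and 1520, 1350, 1490 and 1330 in the base. All apical arrays were above all basal arrays, by a small margin, and the middle arrays covered both. The apex minus base difference was 0.17, with an interval from -0.05 to 0.38 (adjusted p = 0.21). Between apex and middle the interval ran from -0.21 to 0.21. With spike-in scaling the apex minus base difference was -0.25 (adjusted p = 0.055).

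The probes at the 3′ end of Atp2a2 differed from those along its body. Probes 3 to 19 had apex minus base differences from -0.13 to 0.21, and both probes at the 5′ end had 0.41. Probe 20 (chr5:122905903-122905962), which the array design lists against a non-coding transcript record of the gene, had a signal of 1760, 1560, 1940 and 1660 in the apex, 2510, 1600, 1870 and 1290 on the middle arrays, and 700, 515, 1400 and 691 in the base. The apex was 2.24-fold above the base there (1.16, SE 0.28, limma adjusted p = 0.0083). Only basal array 3, also the basal array with the highest neuronal and hair cell sums, reached the lowest middle array. Probe 21 (chr5:122903704-122903763) had 3020, 2560, 3150 and 2890 in the apex, 4090, 2800, 3070 and 2430 on the middle arrays, and 1740, 1600, 2490 and 1920 in the base, a difference of 0.60 between apex and base (SE 0.17, adjusted p = 0.018). Within the base, the highest and lowest arrays on these probes were those of the neuronal and of the hair cell marker sums. The part of neurons and hair cells was not tested. Both departed from the gene (adjusted p = 0.035 for probe 20 and 0.048 for probe 21), but in only 2 and 1 of the 12 fits with an array left out. Probes 2 and 15 to 19 were the other 6, each set against a mean that includes probes 20 and 21.

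**Figure D4:**
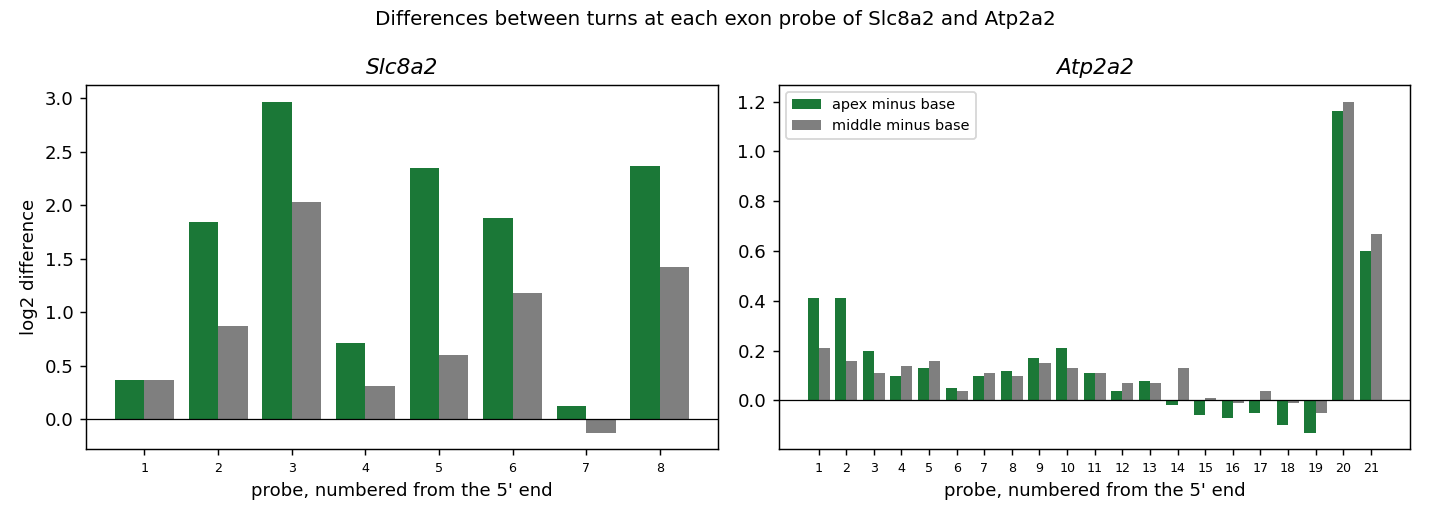
Log2 difference of apex minus base (green) and middle minus base (grey) at each probe of Slc8a2 (8 probes) and Atp2a2 (21 probes), numbered from the 5′ end. In Slc8a2 apex minus base runs from 0.12 at probe 7 to 2.97 at probe 3, and in Atp2a2 only probes 20 and 21 exceed 0.41.

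The sodium/calcium exchangers clear large calcium loads, and NCX1, encoded by Slc8a1, is best known from the heart. Slc8a1 was dim. Of its 7 probes, on the minus strand within chr17:81787868-82047252, 1 was well above background on all arrays and 3 on none. The signal was 34.5, 33.8, 31.8 and 25.2 in the apex, 28.6, 24.3, 19.7 and 20.3 on the middle arrays, and 15.9, 15.8, 16.3 and 16.2 in the base. The basal arrays lay below all others, and apical array 4 fell among the middle arrays. The apex was 1.94-fold above the base (0.95, SE 0.12, adjusted p = 0.00017) and the middle turn 1.43-fold (0.52, SE 0.12, adjusted p = 0.015). Apex minus middle was 0.44 (adjusted p = 0.045), and this call was lost under 21 of 28 alternatives, and that of middle against base under 5. With normexp, apex minus base was 0.20 (adjusted p = 0.052). The probe detected on all 12 arrays, probe 6, had a difference of 0.57 (SE 0.21, adjusted p = 0.062).

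Slc8a2 encodes NCX2, an exchanger of brain and neurons. Its 8 probes lie on the plus strand within chr7:16719809-16745856, with 3 well above background on all arrays and 1 on none. The signal was 78.2, 76.7, 78.8 and 62.6 in the apex, 41.5, 39.2, 49.1 and 46.7 on the middle arrays, and 26.2, 20.4, 24.5 and 28.5 in the base. The 3 turns formed 3 separate ranges in the order apex, middle, base. The apex was 2.98-fold above the base (1.58, SE 0.12, adjusted p = 3.4e-06) and 1.68-fold above the middle turn (0.75, SE 0.12, adjusted p = 0.0039), and the middle turn was 1.78-fold above the base (0.83, SE 0.12, adjusted p = 0.00089). These calls held under every alternative tried, with adjusted p between 7.2e-07 and 9e-05 for apex minus base, but the size did not. That difference ran from 0.60 with normexp to 2.20 with the median of the probes, and at 0.60 and at 0.99, with 16 added to each signal, it was under 2-fold. In the base, 5 of the 8 probes were well above background on 0 arrays, so the fold of the gene mean rests in part on background. Hair cell marker sums also formed 3 separate ranges in this order, and their part was not tested.

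Most of the difference in Slc8a2 was carried by some of its probes. Probe 8, nearest to the 3′ end (chr7:16745797-16745856), had 1480, 1670, 1310 and 1200 in the apex, 819, 665, 837 and 599 on the middle arrays, and 257, 216, 299 and 325 in the base. It was well above background on all arrays, and the apex was 5.18-fold above the base (2.37, SE 0.16, adjusted p = 3.8e-06). Its neighbour, probe 7 (chr7:16742616-16742675), was also detected throughout and had 207, 161, 184 and 197 in the apex, 171, 159, 138 and 161 on the middle arrays, and 210, 176, 164 and 141 in the base. The turns overlapped on probe 7, with a difference of 0.12 (SE 0.12, adjusted p = 0.51). Probe 1 had a difference of 0.36 (SE 0.15, adjusted p = 0.08). Probes 3, 5 and 6 were well above background on all apical arrays and on 0 basal arrays, so that the apex was at least 2.49-fold higher at probe 3 (adjusted p = 1.7e-05), at least 1.91-fold at probe 5 (adjusted p = 0.0033) and at least 1.70-fold at probe 6 (adjusted p = 0.0042). Probe 2 was above background on 1 apical array and probe 4 on none, which leaves no fold for them. Probes 1, 3, 7 and 8 departed from the gene, with adjusted p from 0.0035 to 0.013.

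Slc8a3, the exchanger NCX3 of muscle and brain, showed no ordered pattern. Its 6 probes lie on the minus strand within chr12:82300462-82415415 and all were well above background on all arrays. The signal was 451, 482, 371 and 489 in the apex, 462, 523, 476 and 547 on the middle arrays, and 505, 490, 413 and 392 in the base, and all 3 turns overlapped. The apex minus base difference was -0.01, with an interval from -0.25 to 0.23 (adjusted p = 0.97), and apex minus middle was -0.17 (-0.41 to 0.07, adjusted p = 0.31). Its 6 probes differed by -0.17 to 0.28 between apex and base, and 0 passed in limma, at an unadjusted p under 0.05 or in the unmoderated test. With spike-in scaling the gene was lower in the apex than in the base (-0.42, adjusted p = 0.0084), at a median of all genes of -0.454.

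Stc1 was measurable throughout the apex alone. Its signal was 61.4, 69.0, 64.7 and 83.9 on the apical arrays, 16.2, 7.68, 19.7 and 11.4 on the middle arrays, and 14, 12.6, 15 and 14.8 on the basal arrays. All 4 probes were well above background on every apical array. Of the middle arrays, 1 and 3 had 1 probe each at that level and 2 and 4 had none, as did every basal array. The measured means were 4.92-fold apart between apex and base, which the background bounds to at least 2.55-fold higher in the apex. By probe, the apex was at least 1.74-fold above the base for probe 1, 2.22-fold for probe 2, 2.82-fold for probe 3 and 3.78-fold for probe 4. Against the middle turn, where 1 probe was detected on each of 2 arrays and none on the others, no fold of the gene mean is given, and probes 2 and 3 gave at least 1.88-fold and 2.39-fold. These values chose the gene and are given as a description.

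A single middle spot of Stc1 broke the pattern. Probe 1 read 72.1 on middle array 1, above its 39.4, 45.4, 54.7 and 50.7 in the apex, whereas probes 2, 3 and 4 read 8.45, 12.5 and 9.02 on that array. The other middle readings of probe 1 were 8.21, 23 and 15. With normexp, which compresses low signals, Stc1 was 0.78 higher on the log2 scale in the apex than in the base and 0.68 higher than on the middle arrays, and with 16 added to each signal 1.48 and 1.51.

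**Figure D5:**
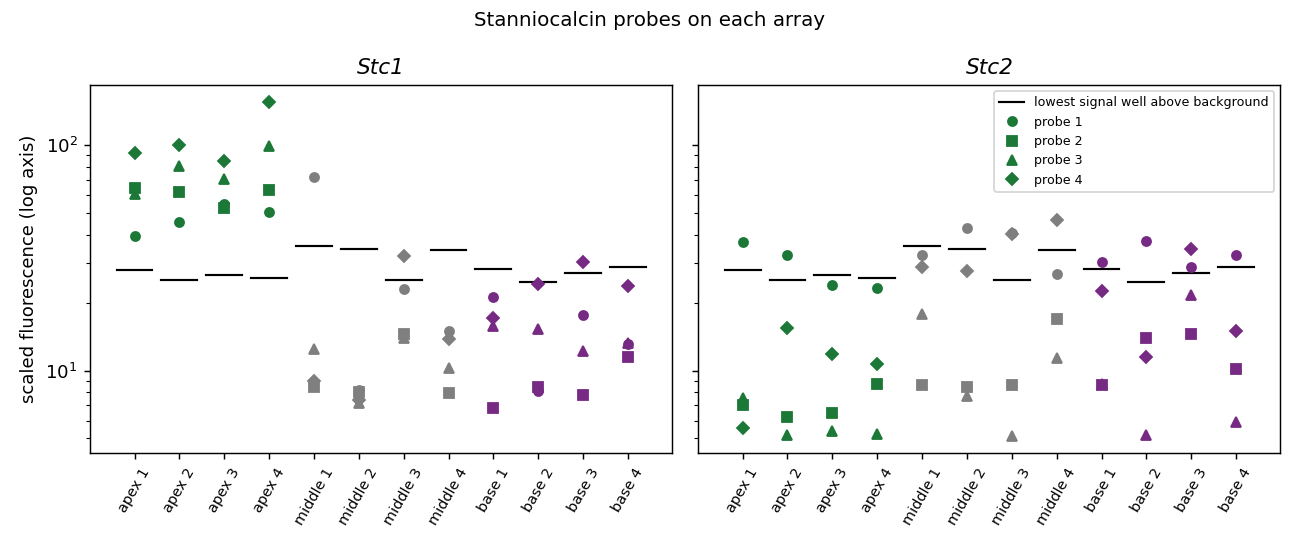
Scaled fluorescence (log axis) of the 4 probes of Stc1 (left) and of Stc2 (right) on each of the 12 arrays, with a short black line at the lowest signal that counted as well above background on that array. All 4 probes of Stc1 lie above the line on the apical arrays, from 39.4 to 156, and most points of the other arrays and of Stc2 lie below it.

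Stc2, the paralog, was near background in all turns. Its 4 probes lie on the minus strand within chr11:31260136-31269862. No probe was well above background on all 4 arrays of any turn, and 2 probes were on none. A probe was detected on 2 apical, 3 middle and 2 basal arrays. The signal was 10.2, 11.3, 9.97 and 10.3 in the apex, 19.5, 16.6, 16.4 and 22.1 on the middle arrays, and 15.1, 13.3, 23.6 and 13.1 in the base. The apical arrays lay below all others, and the middle and basal arrays overlapped. The apex minus base difference was -0.59 (SE 0.17, adjusted p = 0.017) and the apex minus middle difference -0.83 (SE 0.17, adjusted p = 0.014). Of its probes, 1 was called higher in the base, probe 2, which was well above background on 0 arrays. The probe with most detections, probe 1, had a difference of -0.16 (SE 0.19, adjusted p = 0.56), and with normexp the gene's apex minus base difference was -0.14 (adjusted p = 0.29).

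Genes with the array pattern nearest to Stc1 were Tnc, Fam84a and Alox12e, with root mean square differences of 0.377, 0.407 and 0.492 log2 units over the 12 arrays, among 16493 genes compared. Stc1 had no more than 1 detected probe on any middle or basal array, so this order rests on the apical signal that chose the gene and on values near background. Tnc, the matrix protein tenascin C, had mean log2 signals of 6.28, 3.92 and 3.68 in apex, middle and base, and Fam84a 7.17, 4.63 and 4.79. Nearest to Atp2b2 were Wbscr17, Apba1 and Camta1, with 0.0561, 0.0648 and 0.0677. Apba1, an adaptor protein of neurons, had an apex minus base difference of 1.26 and a middle minus base difference of 1.09, and Camta1, a calmodulin-binding transcription factor, 1.46 and 1.18. All these genes were chosen by their likeness, so their differences are descriptions.

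Other genes of calcium handling were called in both directions. Of 56 listed, 55 were measured (all but Micu3), 10 were called towards the apex and 13 towards the base, beside 17.6% and 21.6% of all genes, and 6 passed the 2-fold rule, beside 4.69% of all genes. Their median apex minus base difference was -0.04, beside -0.0363 for all genes. Among 10 calcium-binding buffer proteins, 4 were called towards the apex and 1, S100b, towards the base. Calb1, Calb2, Pvalb and Ocm, which encode calbindin, calretinin, parvalbumin and oncomodulin, differed by 2.44, 1.72, 1.29 and 1.92 between apex and base (adjusted p = 0.00032, 0.0047, 0.012 and 1.3e-05). Calb1 had a mean log2 signal of 4.15 in the base, near background, so the size of its difference rests in part on background. Calretinin and parvalbumin are known in spiral ganglion neurons and oncomodulin in outer hair cells, whose markers moved the same way, and their part was not tested.

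Among 7 other exchangers, 2 were called towards the apex and 4 towards the base. Slc24a2, a potassium-dependent sodium/calcium exchanger of neurons, differed by 1.28 (SE 0.24, adjusted p = 0.0015), with mean log2 signals of 8.88, 8.59 and 7.60 in apex, middle and base. Of 4 other pumps, Atp2a3 (SERCA3) alone passed, 1.47-fold higher in the apex (adjusted p = 1e-04). Of 7 pump partners and regulators, 2 were higher in the base, the pump partner basigin (Bsg, 1.46-fold, adjusted p = 0.00041) and the SERCA inhibitor phospholamban (Pln, 1.54-fold, adjusted p = 0.0017). Atp2a3, S100b, Bsg and Pln are named because their counts are small, after their values were seen, as is Pappa2. Of 11 genes of calcium release and store-operated entry, 2 were called towards the apex and 3 towards the base, and of 4 measured mitochondrial uptake genes, 0 and 1. Of 5 genes of systemic calcium handling, 0 passed in limma after adjustment or in the unmoderated test, and 1 at an unadjusted p under 0.05.

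The list of stanniocalcin targets and the insulin-like growth factor axis held 7 genes, of which 1 was called towards the apex and 2 towards the base. Pappa, the pappalysin protease that stanniocalcins are known to inhibit, had mean log2 signals of 6.54, 6.59 and 8.09 in apex, middle and base. It was 2.93-fold higher in the base than in the apex (SE 0.20 on the log2 scale, adjusted p = 0.00014) and 2.83-fold higher than in the middle turn (adjusted p = 0.00064), whereas Stc1 stood apart in the apex. Cartilage markers moved in part with Pappa, and their part was not tested. Their summed signal was 688 to 804 in the apex, 724 to 771 on the middle arrays and 1530 to 1880 in the base. Of these 3 markers, 2 were basally higher and 1 apically higher. Of 5 bone markers 1 was called towards the base, and of 4 skeletal muscle markers also 1. In both lists 0 were called towards the apex, and the part of these tissues was not tested. Pappa2, the other pappalysin, differed by 1.02-fold (adjusted p = 0.83), but at mean log2 signals of 4.2, 4.37 and 4.17 in apex, middle and base, near background. Markers of the stria vascularis (4 of 5) and of spiral ligament fibrocytes (2 of 3) were also called higher in the base. The remaining fibrocyte marker was called higher in the apex.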

How the data were processed

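Each of the 12 arrays was a SurePrint G3 mouse exon array with 1 colour, hybridised with cyanine 3 labelled cRNA made from 25 ng of total RNA. The authors scanned the arrays and extracted the spots with Agilent Feature Extraction 10.7.3.1, and the deposited fluorescence intensity is its background-subtracted, processed signal. The series value table held the same intensities, with 0 values that differed. Probe positions and gene names are those of the array design (mm9, NCBI37), which does not say which part of a gene a probe lies in; no genome or annotation of that build was used here.

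Control spots (7914 of 180880 per array) and 326 of 165984 probes with a flag for uneven or outlying spots were left out. Intensities were scaled to the 75th percentile of each array, as in the study's methods, brought to a common value of 640.8 and put on the log2 scale with nothing added. Probes of one gene name were averaged, which gave 19478 genes from 165658 probes. The 3 turns were compared with limma 3.58.1 in R 4.3.3 (data.table version 1.17.8), with 1 mean per turn and 1 spread over the 12 arrays, and p-values were adjusted by Benjamini-Hochberg over all genes or all probes, with a threshold of 0.05. A 2nd rule asked for a moderated F test over the turns and 2 turns at least 2-fold apart, after the one-way test of the methods. A probe was said to depart from its gene where its difference from the mean of the gene's other probes passed the same F test, in genes with 3 or more probes. The computation was tested on simulated data. The gene lists, the markers and the 10 members were chosen with earlier results of these data known, and Stc1 was picked for its apical signal, so its levels carry no test. Genes outside the 10 are named where they belong to a list of calcium handling genes and passed the 2-fold rule (at most 4 a list), or where they were among the 3 genes whose log2 deviations from their own mean lay nearest to those of Stc1 or Atp2b2 over the 12 arrays. A probe not well above background on every array of a turn (by the extraction software) has only a bound there. The bound took, per array, the higher of the probe's own signal and the lowest signal of any probe well above background.

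Alternatives covered the scaling, the background correction (normexp with an offset of 50), 16 added to each signal, the summary and detection of probes, flagged spots, the test, the arrays in the fit, each array left out, and the array number as a block. Scaling to the spike-in probes, leaving out probe 12 of the Atp2b genes and leaving out basal arrays 2 and 3 were chosen after seeing the data. The number of arrays limits the precision: 4 per turn, from separate mouse samples by the study's account, with the animals shared between turns, so that p-values measure the spread between these samples.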

Additional observations from a re-analysis of the deposited data

Results flagged for a closer look

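Each of the 30 sets of 4 arrays (10 genes in 3 turns) was examined for an array far from the others, which chance flags in about 1 of 20 sets, and 1 set qualified. In Slc8a2, apical array 4 had a log2 signal of 5.97 where the nearest apical array had 6.26, and the gap was 0.882 of the range of the 4 arrays. It was still above all middle arrays. The apical hair cell marker sum was lowest on the same array, at 2020, and its part was not tested.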

How the results depend on the processing

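Over 28 alternatives, the tested genes called numbered 5 to 7 for apex against base, 2 to 5 for apex against middle and 3 to 5 for middle against base. Between apex and middle, 2 genes were called with normexp and 2 with probes well above background alone, a set in which Stc2 has no value. The 2-fold rule was passed by 1 gene with normexp and by 1 with the mean of linear signals, in place of 3. Departing probes numbered 34 with normexp, 7 to 22 with 1 array left out, and 9 without basal arrays 2 and 3. Differences that changed sign were Atp2b1 (-0.07) and Atp2a2 (-0.25) for apex minus base with spike-in scaling, and Slc8a3, which was not called, at 0.08 without apical array 3, 0.05 without basal array 1 and 0.04 without basal array 2. With normexp, apex minus middle of Stc2 was -0.31 (adjusted p = 0.055), and middle minus base of Slc8a1 was 0.18 (adjusted p = 0.11). Causes were not tested. In all, 137 of 153 counts and 487 of 530 differences kept their direction and side of the threshold, or stayed within 1.5 times or 1 SD.

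With the array number of the labels as a replicate block, 7 genes were called for apex against base, 5 for apex against middle and 5 for middle against base (Atp2b1 was gained in both of the last, adjusted p = 0.046 and 0.022), 80 probes were called and 17 departed, and 3 genes passed the 2-fold rule. Same-numbered arrays had correlations of their deviations from -0.0365 to 0.227 (mean 0.0947 over 12 pairs, 6 over 0.1), and different-numbered arrays of different turns a mean of -0.0312 (2 of 36 over 0.1). Same-numbered arrays were thus more alike on average. Not every pair was over 0.1 and no source ties a number to a mouse, so the main fit left the numbers out, although the turns share 4 mice. These correlations do not settle whether the numbers pair the arrays. Low signals limit Stc1, Stc2 and most probes of Slc8a1 and Slc8a2.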
